A study of Bos taurus with 18 samples.

Results

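Among the 2555 transcribed loci that the deposited tables list without an Ensembl identifier, 282 were recorded as 1 uninterrupted block. A locus was taken as a single block where its deposited length equalled its end minus its start plus 1. The other 2273 unannotated loci are shorter than the stretch of genome they span, so at least 1 gap lies between their parts, and they are called gapped loci here. Single loci are identified below by their length and position. The counts came from leukocyte mRNA sequencing of 18 female cattle, 6 Red Angus, 6 Droughtmaster and 6 F1 animals. Red Angus is a Bos taurus beef breed, Droughtmaster is a composite beef breed with Bos indicus and Bos taurus ancestry, and the F1 animals are hybrids of both. Every animal was described as healthy and carried the heat stress condition, so what follows compares breeds and contains no unstressed animal. The labels name each animal separately but give no parentage, batch or pairing. Replicate numbers used below give the order of a breed's animals in the sample list and are not part of the labels.

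Leukocytes are the white cells of blood: neutrophils, lymphocytes, monocytes and rarer types. Read-based annotation pipelines list a transcribed locus wherever aligned reads build a transcript that the reference annotation lacks. A transcript without a gap has no intron in its model. Such models can stand for intronless genes, unspliced noncoding RNAs, extensions of neighbouring genes or unprocessed RNA, and which of these holds for any locus here was not analysed. Since the Ensembl identifiers could not be paired with gene names (0 matched), leukocyte markers were not checked and the position of the loci relative to known genes was not analysed here. Whether counting used strand is not given in the sources used here. A locus and anything transcribed from its other strand therefore cannot be told apart. In bulk blood, fewer cells of a type and less RNA per cell cannot be told apart either. No sequence of these loci was used.

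The single-block loci were mostly short. Their median length was 582.5 bases, against 499 bases of transcript in the gapped loci, which spanned a median of 4320 bases. In the class under 2 kb there were 222 loci (78.7%), from 202 to 1982 bases with a median of 388.5. The class from 2 to 5 kb held 39 loci (13.8%), from 2007 to 4797 bases. The class over 5 kb held 21 loci (7.45%), from 5076 to 15244 bases with a median of 6821. The loci next to the boundaries were of 1982 and 2007 bases, on chromosomes 29 and X, then of 4797 and 5076 bases, on chromosomes 3 and 12. Outside the definition, the smallest gap of any unannotated locus was 20 bases, at 6 loci.

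The plus strand carried 164 of the 282 loci (58.2%), against 49.1% of the gapped loci. The excess of plus-strand models was in the shortest class, with 139 of 222 on the plus strand (62.6%). In the middle class 14 of 39 were on the plus strand, and over 5 kb 11 of 21. All coordinates are on ARS-UCD1.2. Single-block loci lay on 30 chromosomes and 2 unplaced scaffolds, and chromosomes 3 and 8 held the most, with 15 each. As a share of the unannotated loci of a chromosome they made up 9 of 30 on chromosome 20 (30.0%), all of them under 2 kb, and 12 of 56 on chromosome 9 (21.4%). The lowest share was 3 of 87 on chromosome 12 (3.45%). Loci over 5 kb lay on 13 chromosomes, with 3 each on chromosomes 4 and 13.

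Of the 280 single-block loci with another unannotated locus on the same chromosome or scaffold, 90 (32.1%) had one within 10 kb. For 67 of these 90 the nearest neighbour was on the same strand and for 23 on the opposite strand. Gapped loci had a neighbour within 10 kb at 642 of 2236 (28.7%), with 337 on the same strand and 305 on the opposite strand. Overlap with another unannotated locus, taken from start to end with gaps included, was recorded for 25 single-block loci (8.87%) and 284 gapped loci (12.5%). On chromosome 18, the 2483-base locus (59225161 to 59227643, plus strand) and the 2422-base locus (59225162 to 59227583, minus strand) cover nearly the same stretch from opposite strands, and neither had a count in any library. The 1189-base locus on chromosome 13 (79222106 to 79223294) and the 2990-base locus on chromosome 9 (81589397 to 81592386), which lie 100% and 97.5% inside the span of a gapped locus of the opposite strand, also had 0 counts. These 4 make up the whole set of members at 0 everywhere that are over 1 kb. The other 5 loci at 0 were 234 to 329 bases long and overlapped no unannotated locus. Whether the overlap set the counts to 0 was not tested. A 294-base locus on chromosome 10 and a 224-base locus on chromosome 29 lie 100% inside the span of an opposite-strand gapped locus as well, and had 37 and 24 counts over all libraries.

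Longer classes had the higher abundance per length. Levels within a locus are given in CPM (counts per 1000000 TMM-scaled library counts), and levels between loci in CPM per kilobase of locus, averaged over the 18 libraries. The median was 0.273 under 2 kb (quartiles 0.133 and 0.571), 0.529 from 2 to 5 kb (0.290 and 1.18) and 0.639 over 5 kb (0.489 and 1.30). Gapped loci had higher medians in the same classes, 0.438, 1.23 and 1.37. A level of at least 1 was reached by 45 single-block loci (16.0%) and by 28.7% of the gapped loci. These are descriptions of the whole lists, and the lists share their libraries, so no test is attached.

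**Figure D1:**
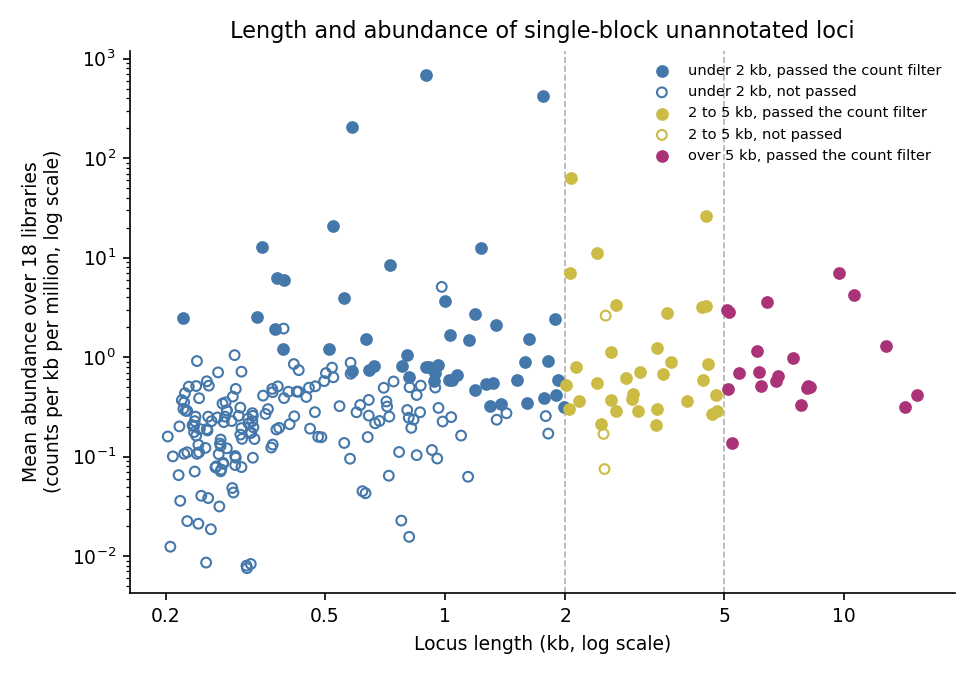
Length of each single-block locus in kb (x axis, log scale) against its mean abundance in CPM per kilobase (y axis, log scale), with 1 point per detected locus, filled where it passed the count filter, and dashed lines at 2 kb and 5 kb. The class medians climb from 0.273 to 0.639, while the 3 highest points all lie under 2 kb.

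A handful of loci supplied most of the counts. Over all libraries the 282 loci took 721542 counts, of which 1 locus alone took 34.6%, the first 3 took 66.3% and the first 10 took 85.5%. The 262 loci outside the first 20 shared 8.60%. The class under 2 kb therefore held 70.6% of the counts, the middle class 17.8% and the longest class 11.6%. In gapped loci the order differed, with 31.0% under 2 kb, 40.7% from 2 to 5 kb and 28.2% over 5 kb.

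The most abundant member was an 895-base locus on chromosome 10 (67338254 to 67339148, plus strand), at 680 CPM per kilobase. Its level in CPM ran from 93.2 through a median of 509 to 855 in Red Angus, from 128 through 655 to 964 in F1 and from 129 through 585 to 2220 in Droughtmaster. The 3 breeds overlapped over nearly their whole range, and the highest library was Droughtmaster replicate 3. In that library a single feature outside this set took 44.6% of all counts, against at most 4.03% for the leading feature of any other library. Next came a 1760-base locus on chromosome 1 (76416082 to 76417841, plus strand) at 418 CPM per kilobase. It was measured at 509, 1018 and 1521 CPM in Red Angus (lowest, median and highest), 185, 541 and 1302 in F1 and 146, 633 and 981 in Droughtmaster. A 585-base locus on the same chromosome (92661090 to 92661674, plus strand) was at 205 CPM per kilobase. These 3 loci differed within each breed by several fold and did not separate the breeds.

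In the middle class the leaders were a 2071-base locus on chromosome 19 (39322275 to 39324345, minus strand) at 62.9 CPM per kilobase, a 4505-base locus on chromosome 10 (14018286 to 14022790, minus strand) at 26.2 and a 2396-base locus on chromosome 6 (66094280 to 66096675, plus strand) at 11.2. The 2071-base locus was even across animals, at 118 to 165 CPM in Red Angus, 94.1 to 186 in F1 and 91.6 to 150 in Droughtmaster. Over 5 kb the leaders were a 9732-base locus on chromosome 27 (37670682 to 37680413, minus strand) at 7.05, a 10600-base locus on chromosome 14 (3139214 to 3149813, minus strand) at 4.20 and a 6418-base locus on chromosome 18 (61905505 to 61911922, minus strand) at 3.55. None of these 6 passed the test in any comparison.

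Detection followed length closely. A locus counts as detected in a library with at least 1 count. The loci of 200 to 299 bases (76 loci) were detected in a median of 4 of 18 libraries, those of 300 to 499 bases (54) in 9, those of 500 to 999 bases (59) in 15 and those of 1000 to 1999 bases (33) in 18. Every library held a count for 30 of 222 loci under 2 kb (13.5%), 26 of 39 from 2 to 5 kb (66.7%) and 20 of 21 over 5 kb (95.2%). The median locus had 36 counts in all under 2 kb, 515 from 2 to 5 kb and 1492 over 5 kb, so a missing count in a short locus is weak information at this depth. Over the whole set, 76 loci (27.0%) were detected in all 18 libraries, against 30.0% of the gapped loci and 44.7% of the Ensembl features.

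**Figure D2:**
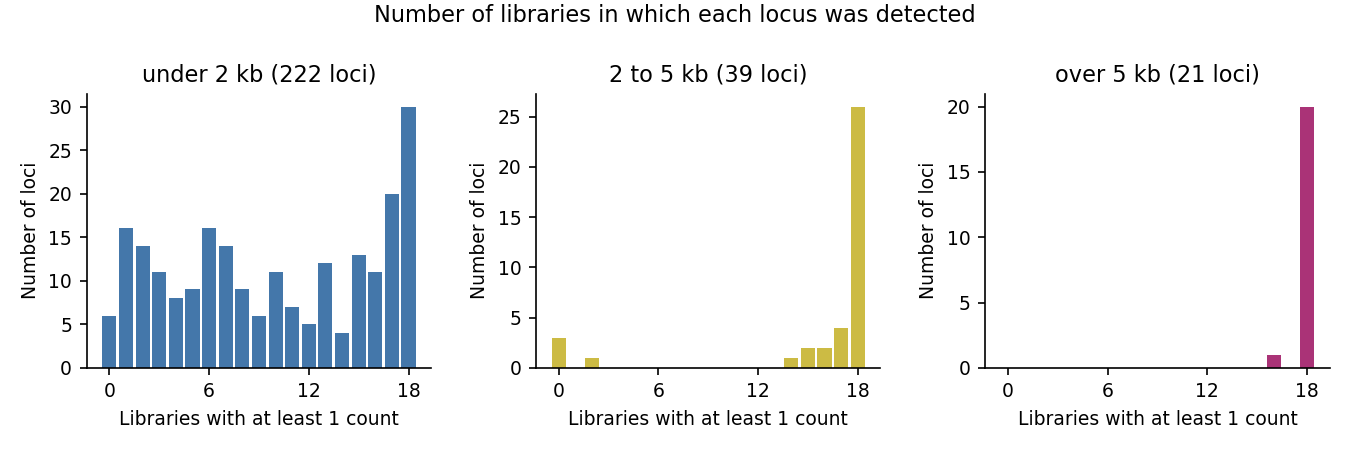
Number of single-block loci (y axis) by the number of libraries with at least 1 count (x axis), 1 panel per length class. Under 2 kb the loci spread over 0 to 18 libraries, while 95.2% of those over 5 kb were detected in all 18.

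Library totals ran from 11639027 to 24117615 counts, with means of 20090483 in Red Angus, 18008193 in F1 and 16213487 in Droughtmaster. Per library, 144 to 203 of the 282 loci were detected in Red Angus (median 168), 132 to 195 in F1 (median 183) and 169 to 219 in Droughtmaster (median 173.5). With every library thinned to 11639027 counts, the number ran from 138.4 through a median of 155.8 to 189.1 in Red Angus, from 131.5 through 172.1 to 186.5 in F1 and from 155.4 through 170.0 to 210.6 in Droughtmaster. The breeds overlapped at both depths. The Droughtmaster library at 155.4 was replicate 3, where a single feature outside this set took 44.6% of all counts. Fewer of its counts were left for the other features. F1 replicate 2 was the lowest library and Droughtmaster replicate 6 the highest. The same libraries were lowest and highest over all features, at 15507 and 19605 features detected.

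The set as a whole took 0.128 to 0.331% of a library's counts. The mean share was 0.227% ± 0.079 in Red Angus, 0.219% ± 0.073 in F1 and 0.211% ± 0.049 in Droughtmaster (SD, n = 6 each). Without the 3 most abundant loci it was 0.0718%, 0.0730% and 0.0815%. The loci over 5 kb took 0.0219% ± 0.0144, 0.0257% ± 0.0083 and 0.0312% ± 0.0148 in the same order. Summed over the 21 longest loci, CPM ran from 142.6 through a median of 179.1 to 346.5 in Red Angus, from 179.8 through 226.5 to 292.3 in F1 and from 224.4 through 268.0 to 379.6 in Droughtmaster. The breeds overlapped in each of these sums. In Droughtmaster replicate 3 a single feature outside this set took 44.6% of all counts, which lowered every share in that library. Its share for the whole set was 0.168%. The mean shares of Droughtmaster are lowered with it, so the order of the breeds in these shares was not read as a difference.

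**Figure D3:**
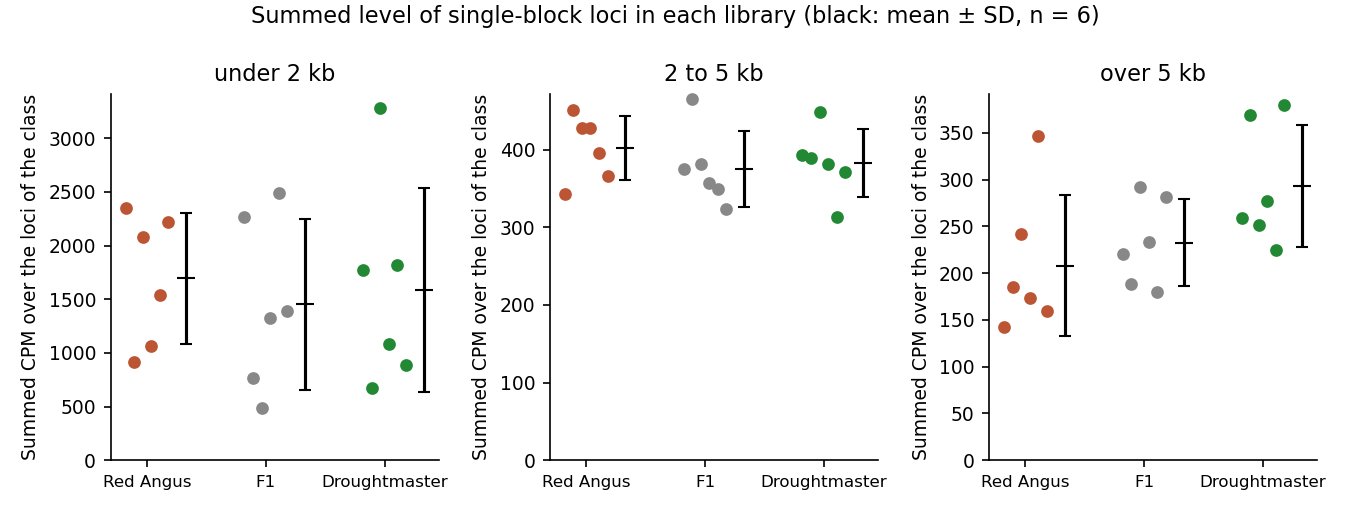
Summed CPM of the single-block loci of each length class in every library, by breed, with 1 point per animal and a black mark at the mean ± SD (n = 6). Over 5 kb the median is 179.1 in Red Angus, 226.5 in F1 and 268.0 in Droughtmaster, and the points of the breeds overlap in every class.

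The breed tests covered the 104 loci (36.9%) that passed a filter on low counts: 50 of 222 under 2 kb, 33 of 39 from 2 to 5 kb and all 21 over 5 kb. A locus that passes only through the breed where it is high has to differ, so counts over the 104 do not stand for the 282. Of the 104, 21 reached the level the filter asks for in fewer than 6 of the 12 libraries outside Droughtmaster. In Droughtmaster against Red Angus, 4 loci were called at an adjusted p under 0.05 (quasi-likelihood test in edgeR, Benjamini-Hochberg over all 14446 features tested). All 4 were higher in Droughtmaster, 2 in the middle class and 2 in the longest. Over all features tested 2.6% were called, 1.5% as higher and 1.1% as lower, and 4 of 104 is 3.85%. The 2 called loci of the middle class reached the filter level in 3 and 1 of the 12 libraries outside Droughtmaster. They entered the test through the breed where they were high, so the 4 cannot be read against this background. Of the 903 tested gapped loci 2.66% were called, 22 higher and 2 lower.

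The smallest p belonged to a 14193-base locus on chromosome 4 (69676799 to 69690991, plus strand), next to the longest of all members. It was measured at 0.782, 1.57 and 3.20 CPM in Red Angus (lowest, median, highest), 0.879, 2.23 and 2.46 in F1 and 4.26, 8.31 and 17.5 in Droughtmaster. Every Droughtmaster animal was above every Red Angus and every F1 animal, and the latter breeds overlapped. The log2 fold change of Droughtmaster against Red Angus was 2.51 (SE 0.444, edgeR adjusted p = 0.00787). It passed in each of the 18 fits that left out 1 library, and every library reached the level the filter asks for.

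The longest member, at 15244 bases, lies on chromosome 13 (78208837 to 78224080, plus strand). Red Angus ran from 0.915 through 2.50 to 2.78 CPM, F1 from 1.09 through 1.87 to 2.54 and Droughtmaster from 4.27 through 7.03 to 47.5. Again all Droughtmaster animals were above all others, and replicates 2 (47.5) and 6 (20.6) were far above the other 4, which ran from 4.27 to 7.82. The log2 fold change was 2.79 (SE 0.545, edgeR adjusted p = 0.0123), and it passed in all 18 fits without 1 library. Without Droughtmaster replicate 2 the log2 fold change was 2.04. Every library reached the level of the filter. A gapped locus on the same strand (78215655 to 78216547) lies inside it and had 0 counts in every library.

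A 2942-base locus lies 118.3 kb from the longest member on the same chromosome (78087589 to 78090530, minus strand). It was measured at 0, 0.253 and 0.815 CPM in Red Angus, 0.119, 0.338 and 0.796 in F1 and 0.864, 2.85 and 4.95 in Droughtmaster. The Droughtmaster range began just above the Red Angus and F1 maxima. The log2 fold change was 3.12 (SE 0.655, edgeR adjusted p = 0.0174), and it passed in all 18 fits without 1 library. This locus reached the level of the filter in all 6 Droughtmaster libraries but in 3 of the 12 others, so it entered the test through the breed where it was high and had to differ. Both loci of this pair were high in the same breed on opposite strands.

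A 3381-base locus on chromosome 5 (99966303 to 99969683, plus strand) had a mean of 0.696 CPM, below the minimum of 1 set for naming loci, and is named after its values were seen. Its counts were 22, 13, 17, 14, 17 and 91 in Droughtmaster and 2, 0, 2, 2, 17 and 3 in Red Angus. In CPM no Red Angus animal reached the lowest Droughtmaster animal (0.605 against 0.672). The log2 fold change was 3.06 (SE 0.750, edgeR adjusted p = 0.0372). It passed in 10 of 18 fits without 1 library, with an adjusted p from 0.0104 to 0.0998. Without Red Angus replicate 5 the log2 fold change was 3.95. This locus too entered the test through Droughtmaster, with all 6 of its libraries at the level of the filter and 1 of the 12 others. With no filter its adjusted p was 0.0524, and that of the 2942-base locus was 0.0180.

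With only the Red Angus and Droughtmaster libraries in the fit, the 14193-base locus alone passed, and the 15244-base locus had an adjusted p of 0.0542 and the 2942-base locus of 0.0572. That fit called 56 of all features, against 376 in the main fit. Leaving out Red Angus replicate 5 raised the number of called members from 4 to 11, while calls over all features rose from 376 to 1407. Leaving out F1 replicate 2 raised the members to 7 and the calls over all features to 518. Without Red Angus replicate 5 and Droughtmaster replicates 3 and 6 together, 3 members passed, of 14193, 15244 and 6821 bases. Over all features 127 were called there. At an unadjusted p under 0.05 there were 27 of 104 members against 19.8% of all features, 19 higher in Droughtmaster (background 9.33%) and 8 lower (background 10.4%). By class these were 8 of 50, 13 of 33 and 6 of 21. Of the tested gapped loci 20.6% had an unadjusted p under 0.05, 14.2% higher and 6.42% lower. The 104 include 21 loci that reached the filter level in fewer than 6 of the 12 libraries outside Droughtmaster. The 27 therefore cannot be read against the background. DESeq2 called 15 of the 176 members it tested (8.52%), against 6.21% of all features it tested. In 5 members all 6 Droughtmaster animals were above all 6 Red Angus animals (background 0.817%), and in 0 members were all below (background 0.824%). The 5 were the 4 called loci and a 3047-base locus on chromosome 15 (82237844 to 82240890, edgeR adjusted p = 0.176). The 2942-, 3381- and 3047-base loci reached the filter level in 3, 1 and 5 of the 12 libraries outside Droughtmaster. These loci entered the test through Droughtmaster, so the 5 cannot be read against the background.

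The 21 members over 5 kb, the 2 called ones included, mostly had positive fold changes. Their log2 fold changes ranged from -0.20 to 2.79 with a median of 0.61, and 19 of 21 were positive. The median was 0.48 from 2 to 5 kb (19 positive, 14 negative) and 0.07 under 2 kb (28 positive, 22 negative). It was 0.24 in the tested gapped loci, of which 63.5% were positive, the same share as in the 104 members (63.5%). Over all features it was -0.01, and 49.7% were positive. For 16 of the 21 longest loci the highest of the 18 libraries was Droughtmaster replicate 2 or 6 (76.2%), against 18.99% of all features tested. This pair of libraries was picked after the values of these loci were seen, so the 76.2% cannot be read against that share. Without Droughtmaster replicate 6 the median fell to 0.39, and without Red Angus replicate 5 it was 1.06. With 1 library left out, 18 to 20 of the 21 were positive, and 17 of the 19 were positive in every one of the 18 fits. The 21 loci were measured in the same animals and the 18 fits share most libraries, so these signs are not independent. Red Angus replicate 5 gave 0.04954% of its counts to these loci, and the next Red Angus animal 0.02451%.

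**Figure D4:**
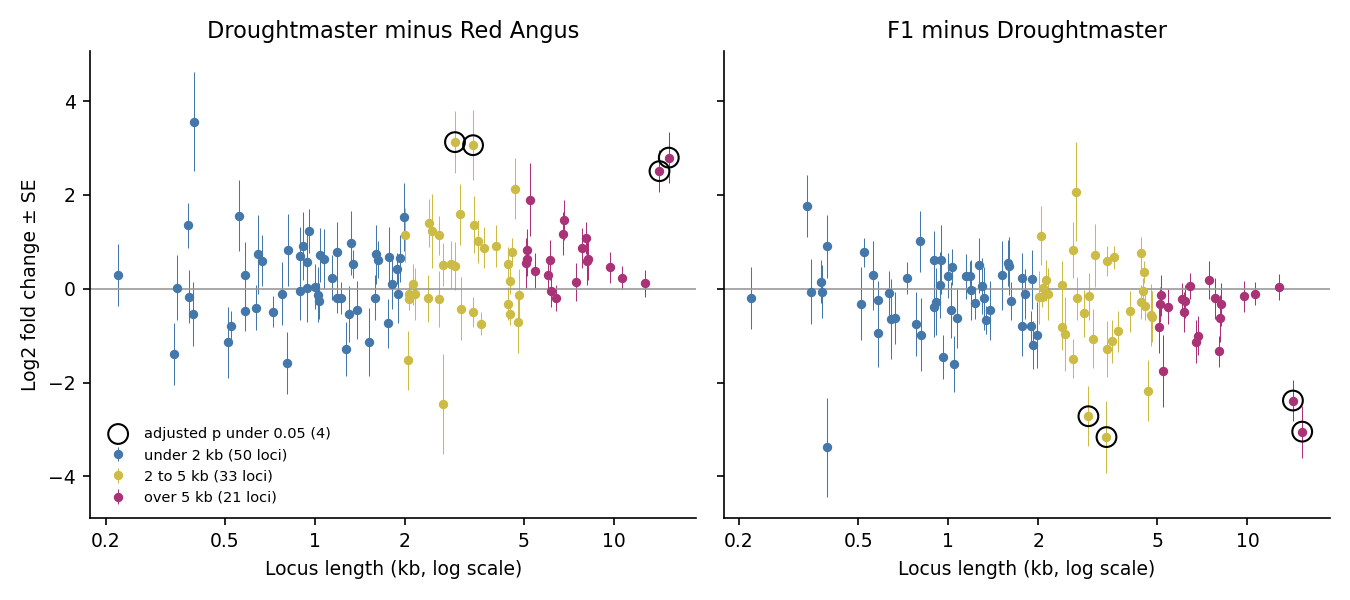
Log2 fold change ± SE of each tested single-block locus (y axis) against its length in kb (x axis, log scale), for Droughtmaster minus Red Angus and F1 minus Droughtmaster, with colours for the length classes and circles round the loci with an adjusted p under 0.05. In Droughtmaster against Red Angus 19 of the 21 loci over 5 kb lie above 0.

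The loci just short of the threshold, named after their values were seen, ranged from short to long. A 6821-base locus on chromosome 1 (117496559 to 117503379, minus strand) ran from 1.04 through 2.22 to 5.55 CPM in Red Angus and from 3.51 through 7.08 to 10.2 in Droughtmaster, which overlapped. Its log2 fold change was 1.47 (SE 0.422, edgeR adjusted p = 0.0625), and without Red Angus replicate 5 the adjusted p was 0.0137. An 8052-base locus on chromosome 18 (15107230 to 15115281, minus strand) ran from 1.85 through 2.83 to 5.42 CPM in Red Angus and from 3.79 through 5.34 to 9.71 in Droughtmaster, with a log2 fold change of 1.08 (SE 0.334, edgeR adjusted p = 0.0778).

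Among members lower in Droughtmaster, a 3591-base locus had the smallest p. This locus of chromosome 25 (27489616 to 27493206, plus strand) ran from 8.12 through 12.5 to 14.2 CPM in Red Angus, from 9.87 through 10.8 to 12.5 in F1 and from 4.12 through 6.76 to 9.41 in Droughtmaster. Every F1 animal was above every Droughtmaster animal, while Red Angus and Droughtmaster overlapped. The log2 fold change of Droughtmaster against Red Angus was -0.75 (SE 0.247, edgeR adjusted p = 0.0995). A 394-base locus on chromosome 20 (17619871 to 17620264, plus strand) had the largest log2 fold change of any tested member, 3.56 (SE 1.06, edgeR adjusted p = 0.0689). It was at 30.3 CPM in Droughtmaster replicate 3 and at most 2.33 in any other library. Without that library the log2 fold change was 1.23 (edgeR adjusted p = 0.474).

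The filter removed a locus with most of its counts in Droughtmaster. This 981-base locus on chromosome 16 (73640793 to 73641773, minus strand), chosen after its values were seen, had 1467 counts, 1413 of them in Droughtmaster. The 6 Droughtmaster animals had 0.504, 32.9, 13.8, 0.240, 2.38 and 37.2 CPM. The Red Angus animals were at 0 to 0.918 and the F1 animals at 0.0398 to 0.541. Thus 4 Droughtmaster animals were above every other animal, and the remaining 2 lay within the range of the other breeds. It reached 10 counts in 5 libraries, and the filter asked for about that level in 6. With no filter its log2 fold change against Red Angus was 5.86 (SE 1.201, edgeR adjusted p = 0.0214). It was chosen for this difference, so the value is a description. An 811-base locus, also removed by the filter and chosen for its difference, reached 10 counts in 2 libraries. With no filter its log2 fold change against Red Angus was 5.30 (SE 1.04, edgeR adjusted p = 0.0153). The Droughtmaster animals were at 0.189 to 0.998 CPM and all other animals at 0.0543 or less. With no filter 5 members were called in Droughtmaster against Red Angus, 2 of them under 2 kb.

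In F1 against Droughtmaster the same 4 loci were called, all lower in F1. Both comparisons share the Droughtmaster animals, so the second is no independent evidence. Over all features tested 1.18% were called, 0.879% as lower and 0.305% as higher. The 2942-base and 3381-base loci entered the test through Droughtmaster, so the 4 cannot be read against this background. Of the 903 tested gapped loci 1.33% were called, 12 lower and 0 higher in F1. For the 15244-base locus of chromosome 13 the log2 fold change was -3.05 (SE 0.552, edgeR adjusted p = 0.00973) and for the 14193-base locus it was -2.38 (SE 0.441, edgeR adjusted p = 0.0106). Both passed in all 18 fits without 1 library, and without Droughtmaster replicate 2 the 15244-base locus was at -2.26. For the 2942-base locus it was -2.72 (edgeR adjusted p = 0.0390), which passed in 7 of 18, and for the 3381-base locus it was -3.16 (edgeR adjusted p = 0.0450), which passed in 5 of 18. With no filter these 2 loci had an adjusted p of 0.0518 and 0.0643 in this comparison. Leaving out Droughtmaster replicate 2, 3 or 6 reduced the called members to 2. Calls over all features fell from 171 to 101, 115 and 84 in these fits. Leaving out Droughtmaster replicate 1 gave 7 members and 335 calls over all features. Without Red Angus replicate 5 and Droughtmaster replicates 3 and 6 together, the 15244-base locus alone passed, with 43 calls over all features.

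At an unadjusted p under 0.05, 22 of 104 members differed between F1 and Droughtmaster (background 14.1%), 18 lower (background 8.9%) and 4 higher in F1 (background 5.23%). Of the tested gapped loci 16.6% did, 13.3% lower and 3.32% higher. The 104 include the 21 loci below the filter level in most libraries outside Droughtmaster, so the 22 cannot be read against the background. DESeq2 called 14 of the 165 members it tested (8.48%), against 3.75% of all features it tested. In 7 members all F1 animals were below all Droughtmaster animals (background 1.2%), and in 1, the 3591-base locus, all were above (background 0.879%). The 7 were the 4 called loci, the 8052-base locus, a 3682-base locus on chromosome 19 (adjusted p = 0.367) and a 6758-base locus on chromosome 4 (adjusted p = 0.248). Of these, the 2942-base and 3381-base loci entered the test through Droughtmaster, so the 7 cannot be read against the background either. Over 5 kb the median log2 fold change was -0.34, with 18 of 21 negative. It was -0.20 from 2 to 5 kb and -0.10 under 2 kb, -0.26 in gapped loci and -0.01 over all features. Fold changes were negative in 69 of the 104 members, 570 of 903 gapped loci and 7311 of 14446 features. On the X chromosome a 2605-base locus (19101721 to 19104325, minus strand) had a log2 fold change of -1.49 (SE 0.419, edgeR adjusted p = 0.0796). The span of a gapped locus on the opposite strand, gaps included, covers 81.2% of it. That gapped locus had -1.33 (edgeR adjusted p = 0.0375). Whether its transcribed parts overlap the 2605-base locus is not known, so the reads of this pair may not be separate.

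F1 and Red Angus were not separated at any tested member. In this comparison edgeR called 0 of 104 and DESeq2 called 0, as over all features (0%), and 2 had an unadjusted p under 0.05 (background 3.23%, 1.18% higher and 2.05% lower). In 0 members were all F1 animals above all Red Angus animals (background 0.0554%) or all below (background 0.0415%). The median log2 fold change was -0.01, 0.08 and 0.12 from the shortest to the longest class, and -0.05 over all features. The 4 loci called elsewhere had 0.12 (SE 0.429) for the 14193-base locus, -0.25 (SE 0.523) for the 15244-base locus, 0.41 (SE 0.651) for the 2942-base locus and -0.10 (SE 0.761) for the 3381-base locus. Errors of this size do not show that the levels were equal. The smallest p belonged to a 376-base locus on chromosome 19 (40417565 to 40417940). It ran from 0.218 through 0.332 to 0.479 CPM in Red Angus and from 0.338 through 0.869 to 1.63 in F1, and did not pass (log2 fold change 1.502, SE 0.482). Next was a 559-base locus on chromosome 21 (48842053 to 48842611, minus strand), at 0.393, 0.785 and 1.78 CPM in Red Angus and 0.601, 1.24 and 13.2 in F1 (lowest, median, highest), which overlapped. It did not pass (log2 fold change 1.84, SE 0.761), and without F1 replicate 6 the log2 fold change was 0.36.

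F1 was also set against the mid-parent value, the mean of Red Angus and Droughtmaster on the log scale. Again edgeR called 0 of 104 members and DESeq2 called 0, against 0% of all features by edgeR and 0.349% by DESeq2. At an unadjusted p under 0.05 there were 7 members (background 5.97%), 6 lower in F1 (background 4.04%) and 1 higher (background 1.93%). The 15244-base locus was at -1.65 (SE 0.484, edgeR adjusted p = 0.485) and the 14193-base locus at -1.13 (SE 0.387, edgeR adjusted p = 0.604).

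**Figure D5:**
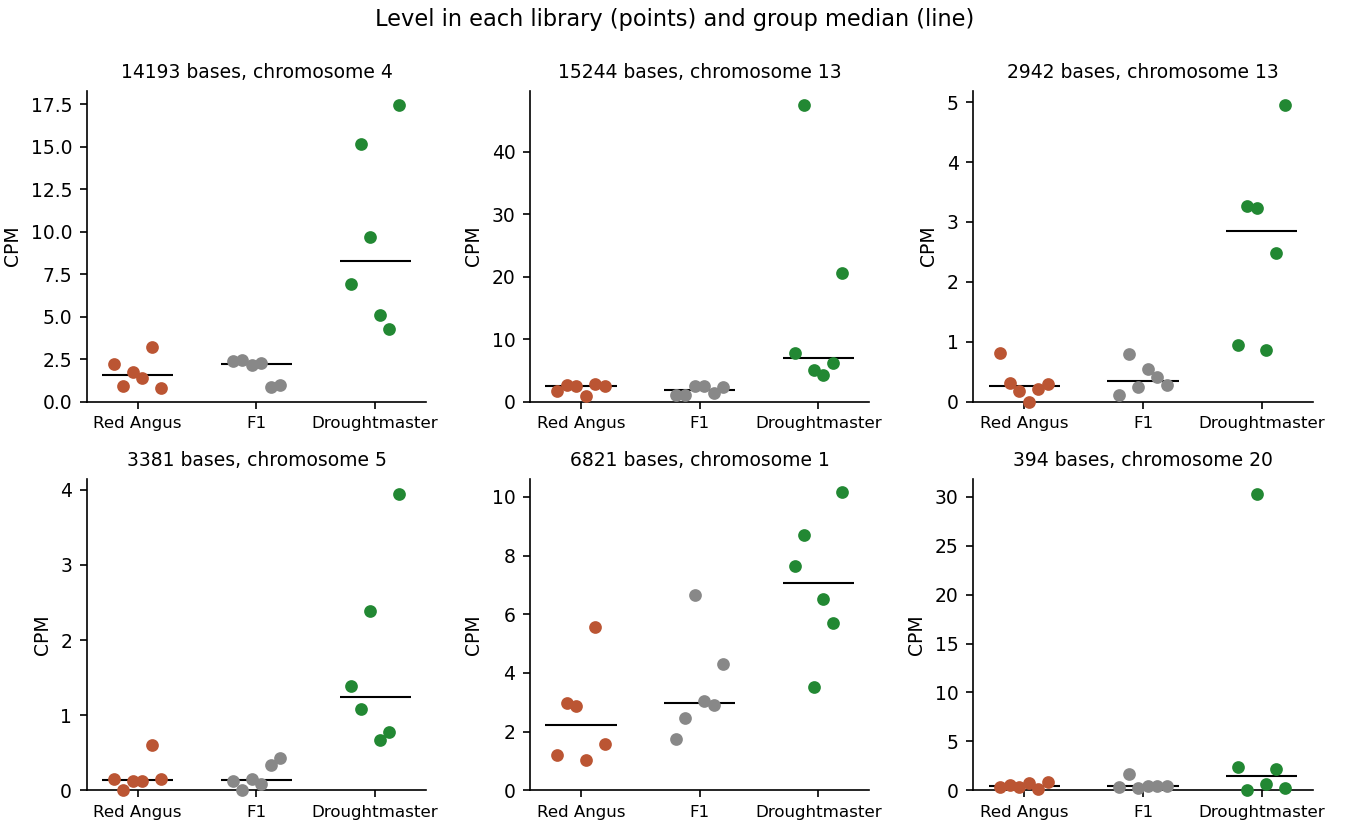
CPM in every animal (y axis), by breed, for the 6 tested single-block loci with the smallest p in Droughtmaster against Red Angus, each panel titled by length and chromosome, with a line at the breed median. In the panels of the 4 called loci (14193, 15244, 2942 and 3381 bases) all 6 Droughtmaster points lie above all Red Angus and F1 points.

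The spread within a breed was wide. The median SD of log2 CPM over the 104 tested loci was 0.862 in Red Angus, 0.692 in F1 and 0.726 in Droughtmaster, against 0.740, 0.551 and 0.589 over all features. Over 5 kb it was 0.838, 0.561 and 0.535. Among the 24 members averaging 5 CPM or more, the evenest were the 2071-base locus (mean within-breed SD 0.267), a 2059-base locus on chromosome 7 (0.291) and the 3591-base locus (0.313). The most uneven were a 2526-base locus on chromosome 1 (1.76), the 895-base locus of chromosome 10 (1.31) and the 2396-base locus (1.01). The 2526-base locus (83916187 to 83918712, plus strand) was at 112.8 CPM in Droughtmaster replicate 3 and at most 1.42 in any other library, and did not pass the filter.

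In 56 members all 6 libraries of at least 1 breed had 0 counts although another library had some (19.9% of the 282, against 12.9% of the gapped loci). They were at 0 in Red Angus only (13), F1 only (8), Droughtmaster only (10), Red Angus and F1 (16), Red Angus and Droughtmaster (4) or F1 and Droughtmaster (5). The most frequent pattern, 0 in Red Angus and F1, made up 5.67% of members and 2.77% of the gapped loci. All but 1 were under 2 kb. That exception, a 2509-base locus on chromosome 16 (75409732 to 75412240, minus strand), was at 0 in F1 and Droughtmaster and had 56 of its 57 counts in Red Angus replicate 3. A 369-base locus on chromosome 16 was at 0 in Red Angus with 43 counts elsewhere, and a 927-base locus on chromosome 8 had 31 of 33 counts in Red Angus replicate 3. At such totals a breed at 0 is not shown to lack the transcript.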

How the data were processed

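Leukocyte mRNA libraries of 18 cattle (6 per breed, taken as separate animals by their names) were analysed. The deposited table holds raw counts per feature. Per the submitters' processing notes, the build was ARS-UCD1.2 and the tools were featureCounts 1.5.0-p3, HISAT2 2.0.5 and DESeq2 1.16.1. How the unannotated loci were assembled is not given in the sources used here. Members and lists were chosen with earlier results of these data known.

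Low counts were filtered with filterByExpr, leaving 14446 of 30162 features. Libraries were scaled by TMM and all 18 entered 1 edgeR 4.0.16 quasi-likelihood fit (R 4.3.3, two-sided, Benjamini-Hochberg, threshold 0.05), tested on simulated data. CPM uses the TMM-scaled totals. Log2 CPM has a prior count of 2. DESeq2 1.42.0, RLE scaling, no filter, each pair of breeds alone, single libraries left out, other class boundaries and a block of at least 95% of the span were the alternatives. Leaving out Red Angus replicate 5 and Droughtmaster replicates 3 and 6 together was chosen after seeing the data.

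Named loci were, per comparison and direction, up to 6 called members of largest fold change with a mean of at least 1 CPM, or the 2 of smallest p. The others were the 3 most abundant per class, those at the class boundaries, the 3 most and least even above 5 CPM, those at 0 in a breed with the 3 highest totals, and called pairs within 500 kb. Every pair of libraries differed by more than sampling noise (chi-square at least 47.1 per degree of freedom).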

Additional observations from a re-analysis of the deposited data

Results flagged for a closer look

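Single libraries stood apart from the other 5 of their breed in 14 of the 114 sets of 6 values examined. The cut used gives about 1 in 20 for independent, normally distributed values. Many of the sets were loci named for their values in these data, and others were whole-number detection counts with ties. The 14 therefore cannot be compared with that rate. The gap to the nearest other animal exceeded 0.625 of the breed's range in each of the 14. F1 replicate 2 had the fewest loci detected under 2 kb (82, the next library 120) and from 2 to 5 kb (29, the next 33). The same library was low for the 4797-base locus at -3.224 log2 CPM (0 counts), the 4665-base locus at -3.224 (0 counts) and the 5076-base locus at 2.33, and high for the 394-base locus of chromosome 20 at 0.8249. Red Angus replicate 5 gave 0.04954% of its counts to loci over 5 kb, where the next Red Angus animal gave 0.02451%. Over 5 kb, Red Angus replicate 4 and Droughtmaster replicate 1 each detected 20 of 21 loci where the others of their breed detected 21.

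Among named loci, the 559-base locus of chromosome 21 was at 3.733 log2 CPM in F1 replicate 6 (243 counts, 13.2 CPM), far above the other F1 animals. The 585-base locus of chromosome 1 was low in Droughtmaster replicate 6 at 5.304. Red Angus replicate 3 was high for the 2509-base locus at 1.79 (56 counts) and the 927-base locus at 0.9728 (31 counts). The shortest member, at 202 bases, was high in Red Angus replicate 1 at -1.971, which is 2 counts.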

How the results depend on the processing

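For Droughtmaster against Red Angus the 4 called members became 15 of 176 tested with DESeq2 (13 higher, 2 lower). That was 8.52%, against 6.21% of all features it tested. The 4 became 1 at an adjusted p under 0.01 (31 over all features) and 1 with only those breeds' libraries fitted (56 over all features). With 1 library left out they ran from 3 to 11. The fit with 11 called 1407 of all features, against 376 in the main fit. For F1 against Droughtmaster the 4 became 14 of 165 tested with DESeq2 (8.48%, background 3.75%). They became 1 at an adjusted p under 0.01 (32 over all features) and 1 (the 15244-base locus) without the 3 libraries (43 over all features). With 1 library left out they ran from 2 to 7. The fit with 7 called 335 of all features, against 171 in the main fit. The DESeq2 fit tested more loci (176 members in the first comparison). For the rest the cause was not tested. No result reversed, and 0 members were called in F1 against Red Angus or the mid-parent under any alternative. With boundaries at 1 and 3 kb the mean shares of counts became 0.0658% and 0.0813% in the short class (Red Angus, Droughtmaster), 0.120%, 0.0958% and 0.0815% in the middle class and 0.0415%, 0.0459% and 0.0486% in the long class (Red Angus, F1, Droughtmaster), and 98.2% of long loci were detected in F1. With blocks of at least 95% of the span, the middle class took 0.0929%, 0.0948% and 0.0923%, the long class 0.0754%, 0.0927% and 0.102%, median abundance was 0.803 and 1.14, and 90.9% of middle-class loci were detected in Droughtmaster. With at least 10 counts required, detection fell to 19.3%, 17.8% and 21.2% under 2 kb (Red Angus, F1, Droughtmaster), 66.7%, 73.5% and 76.1% from 2 to 5 kb, and 96.0% over 5 kb in Red Angus and in F1. No paired analysis was possible because the labels give no replicate numbers or pairing. Depth limits the short loci most: with a median of 36 counts over 18 libraries, 172 of 222 were not tested.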

Other observations

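Some members held most of their level in a single animal. Of the 203 single-block loci with at least 20 counts, 12 (5.91%) had at least 50% of their summed CPM in 1 library, against 83 of 1797 gapped loci (4.62%). Droughtmaster replicates 2 and 3 each held 4 of the 12. Of the 83 gapped loci, 29 were in Droughtmaster replicate 3 and 13 in Droughtmaster replicate 2. A 580-base locus on chromosome 14 (1718403 to 1718982, plus strand) had 62 of its 72 counts in Droughtmaster replicate 3, the library that also held most of the 2526-base locus and the 394-base locus of chromosome 20. These loci were picked after their values were seen.

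The opposite pattern to the called loci was seen below the filter at a 498-base locus on chromosome 17 (68071618 to 68072115, plus strand), also picked after its values were seen. It had 53 counts in Red Angus, 51 in F1 and 1 in Droughtmaster. It was detected in 5 Red Angus, 4 F1 and 1 Droughtmaster animals and was among the members that DESeq2 called in both comparisons with Droughtmaster.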
